A study of Danio rerio with 17 samples.

Results

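The brains of zebrafish given domoic acid (DA) were compared between 48 h and 24 h after the injection. Both groups were AB wild-type fish, 1 year of age at injection, that received 1.1 µg of DA per g of fish into the body cavity, a dose the labels describe as symptomatic. Each group had 3 arrays, and each array carried the RNA of 3 to 4 pooled brains, so that 6 of the 17 arrays of the series enter the comparison. Control fish of the same strain and age received phosphate-buffered saline and had 2 arrays at 48 h and 3 arrays at 24 h. DA and control groups collected at 168 h, with 3 arrays each, entered the estimate of the spread. All 15502 probe sets of the Affymetrix Zebrafish Genome array that do not serve as the manufacturer's controls were members, and 8793 genes were read by at least 1 of them. Values are RMA signals on the log2 scale, so a difference of 1 is a doubling of signal, and a probe set passed at an adjusted p under 0.05 (limma). The labels do not say that the pools came from separate experiments, so p-values measure the spread between these pools.

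DA is a glutamate analogue made by marine diatoms that opens kainate and AMPA receptors, the ionotropic glutamate receptors that carry fast excitation in the brain. Overstimulated neurons take up calcium, and severe exposure causes seizures and loss of neurons. Microglia are the resident macrophages of the brain: they engulf debris, present antigen on class II molecules and release chemokines that direct other cells. The mitochondria of neural cells meet the cost of ion pumping, and the proteasome and antioxidant enzymes clear damaged proteins and reactive oxygen.

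DA 24 h replicate 1 stood apart. Its blank tags, probe sets that match no fish transcript, averaged 5.74 against 4.94 to 5.18 on the other arrays, and its values correlated less with those of the rest (median 0.976, against at least 0.9865 for every other array). Calls are therefore given both with and without it. Spike-ins added at hybridisation averaged 9.27, 9.40 and 9.37 on the DA 48 h arrays, against 10.56, 10.09 and 9.49 on the DA 24 h arrays. Their level thus moved with the comparison, and with it as a covariate 1 probe set passed. Its part in the results was not tested further. Markers of neurons and of radial glia had median levels of 11.9 and 12.0 in DA 48 h brains, while those of retina and pineal, lens and pituitary had medians of 6.0 or less.

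In DA brains, single genes of macrophages, antigen presentation and fatty acid oxidation passed as higher at 48 h than at 24 h, and few genes passed as lower. With all arrays, 56 of 15502 probe sets passed (0.361%), of which 54 were higher (0.348%) and 2 were lower (0.0129%). Without DA 24 h replicate 1, 48 passed (0.31%), of which 40 were higher (0.258%) and 8 were lower (0.0516%). By an unadjusted p under 0.05 in limma, 1593 probe sets were higher and 971 lower with all arrays. Without replicate 1 these counts were 1113 and 934. Repeated quantile normalisation of all arrays gave 28 higher and 6 lower. With the blank-tag level of each array as a covariate, 0 passed in limma in either fit (1821 at an unadjusted p under 0.05 with all arrays and 1638 without replicate 1). Both fits shared 29 calls, all higher, which is 51.8% of the calls with all arrays and 60.4% of those without DA 24 h replicate 1. The largest adjusted p, without that array, of a call made with all arrays was 0.108.

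The called changes were moderate. Their median size was 0.695 with all arrays, the smallest was 0.441, and the median standard error over all probe sets was 0.13. At all 56 calls the DA 48 h and DA 24 h arrays did not overlap, as at 1985 higher and 1487 lower of the 15502 probe sets. Lack of overlap at a called gene is therefore no support beyond the call itself. Called probe sets were brighter than most, with a median level of 7.66 against 6.15 over all probe sets, and 46 of the 56 lay above the overall median. Probe sets above that median had a median change of 0.092, against -0.071 for those below it. With that array left out these medians were 0.027 and -0.03. Brightness and change moved together, less so without replicate 1, and the part of this in the calls was not tested.

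**Figure D1:**
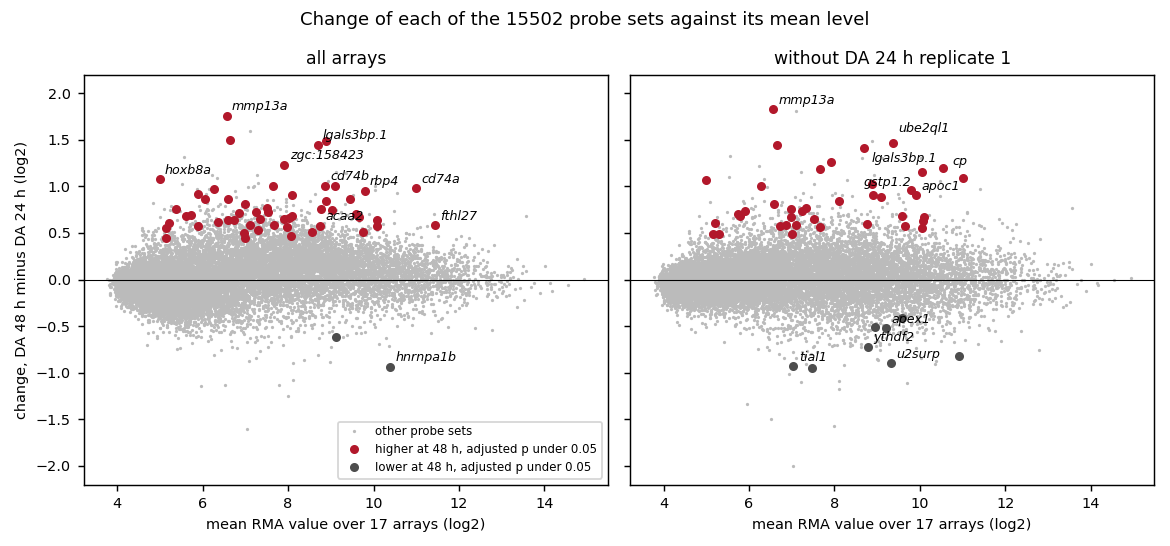
Change of each of the 15502 probe sets, DA 48 h minus DA 24 h on the log2 scale, against its mean level over 17 arrays, with all arrays on the left and without DA 24 h replicate 1 on the right. Red points are higher and dark points lower at 48 h at an adjusted p under 0.05; with all arrays 54 lie above 0 and 2 below.

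With all arrays, the largest changes of named genes were at mmp13a and lgals3bp.1, both of the microglia and leukocyte list. The matrix collagenase mmp13a had 7.64, 7.36 and 8.57 in DA 48 h brains, against 6.24, 6.02 and 6.04 in DA 24 h brains. Every 48 h array was above every 24 h array, and replicate 3 at 48 h was the highest. The change was 1.76 ± 0.30 (SE), a 3.38-fold difference, with an adjusted p of 0.0205 in limma. It was 1.83 without DA 24 h replicate 1 (adjusted p = 0.0406). Control arrays of mmp13a spanned 5.91 to 7.11 at 48 h and 6.02 to 6.90 at 24 h, a spread wider than that of the DA 24 h arrays.

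The secreted galectin-binding glycoprotein gene lgals3bp.1 read 9.54, 9.78 and 9.55 in DA 48 h brains, against 8.10, 8.20 and 8.21 in DA 24 h brains. The groups were separated by more than a doubling of signal, and the change was 1.45 ± 0.21 (SE, adjusted p = 0.0132). Both copies of the invariant chain, which guides class II molecules to the endosome, were higher. The first copy, cd74b, had 9.54, 9.58 and 9.50 in DA 48 h brains, against 8.56, 8.51 and 8.51 in DA 24 h brains. The arrays of each group lay close together, with an SD of 0.04 at 48 h and 0.03 at 24 h (n = 3 each), and the change was 1.01 ± 0.14 (SE, adjusted p = 0.0107). The second copy, cd74a, had 11.51, 11.36 and 11.50 in DA 48 h brains, against 10.70, 10.56 and 10.17 in DA 24 h brains, a change of 0.98 ± 0.15 (SE, adjusted p = 0.0132). Between the same times control fish differed by 0.89 at lgals3bp.1 and 0.57 at cd74b, and the control change at cd74a is given below.

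The lysosomal membrane glycoprotein gene cd68, a macrophage marker named after its values were seen, read 7.93, 8.01 and 7.99 in DA 48 h brains, against 7.11, 7.32 and 7.34 in DA 24 h brains. All 48 h arrays were above all 24 h arrays, and the change was 0.72 ± 0.11 (SE, adjusted p = 0.0141). The chemokine gene ccl34b.1 rose by 1.01 (adjusted p = 0.0433), and ptpn6, a phosphatase that restrains signalling in blood cells, rose by 0.69 (adjusted p = 0.0242). A probe set of cxcl12a, a chemokine that guides migrating cells, rose by 0.86 (adjusted p = 0.0158), while the brighter probe set of that gene differed by 0.67 (adjusted p = 0.151). With DA 24 h replicate 1 left out, these 4 genes and the previous 4 all passed again in limma, with cd68 at 0.65 and ccl34b.1 at 1.18.

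The adhesion protein gene vtnb (vitronectin) rose by 0.98 (adjusted p = 0.0293) and the carboxypeptidase gene cpvl by 0.72 (adjusted p = 0.0326). Of these vtnb passed again without DA 24 h replicate 1 and cpvl did not (adjusted p = 0.0576). A further pair of genes passed without that array and not with it. The copper-carrying ferroxidase gene cp had 11.35, 11.12 and 11.14 in DA 48 h brains, against 10.16 and 9.85 in replicates 2 and 3 and 10.81 in replicate 1 at 24 h, and rose by 1.2 (adjusted p = 0.0325). The lipoprotein component gene apoc1 had 10.21, 10.55 and 10.48 in DA 48 h brains, against 9.53 and 9.49 in replicates 2 and 3 and 10.12 in replicate 1 at 24 h, and rose by 0.90 (adjusted p = 0.0325). In both genes replicate 1 lay between the other 24 h arrays and the 48 h arrays.

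Of 39 measured genes in the microglia and leukocyte list, 4 passed, all higher, beside 0.478% of all genes that passed upward. Of the same 39 genes, 19 were higher and 4 lower by an unadjusted p under 0.05, beside 13.0% and 5.75% of all genes. The list's median change was 0.335, against 0.022 over all genes and 0.105 over genes above the median level. Leaving out DA 24 h replicate 1 gave a median of 0.314, with 5 genes past the threshold (0.387% of all genes passed upward). Control fish had a median of 0.103 between the same times, with 26 of the 39 above 0, beside 50.9% of all genes. In controls 7 of the 39 were higher and 0 lower by an unadjusted p under 0.05, beside 5.15% of all genes higher. Among 8 measured markers of these cells, 7 had a higher mean in DA 48 h brains, with a median change of 0.393, but csf1ra, the receptor that microglia need to survive, differed by -0.06 and lay near the low end of the scale. The actin-bundling leukocyte gene lcp1 had 7.12, 7.56 and 7.21 in DA 48 h brains, against 6.70, 6.55 and 6.56 in DA 24 h brains, a difference of 0.70 that did not pass (adjusted p = 0.061). In such bulk RNA more cells of a type and more RNA per cell cannot be told apart. In the wider list of 78 cytokine, interferon and innate immune genes, 1 passed upward with all arrays, beside 0.478% of all genes, and the median was 0.036. By an unadjusted p under 0.05 in limma, 19 of the 78 were higher and 3 lower, beside 13.0% and 5.75% of all genes. Without DA 24 h replicate 1 these were 14 and 2, beside 831 and 441 of all 8793 genes.

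**Figure D2:**
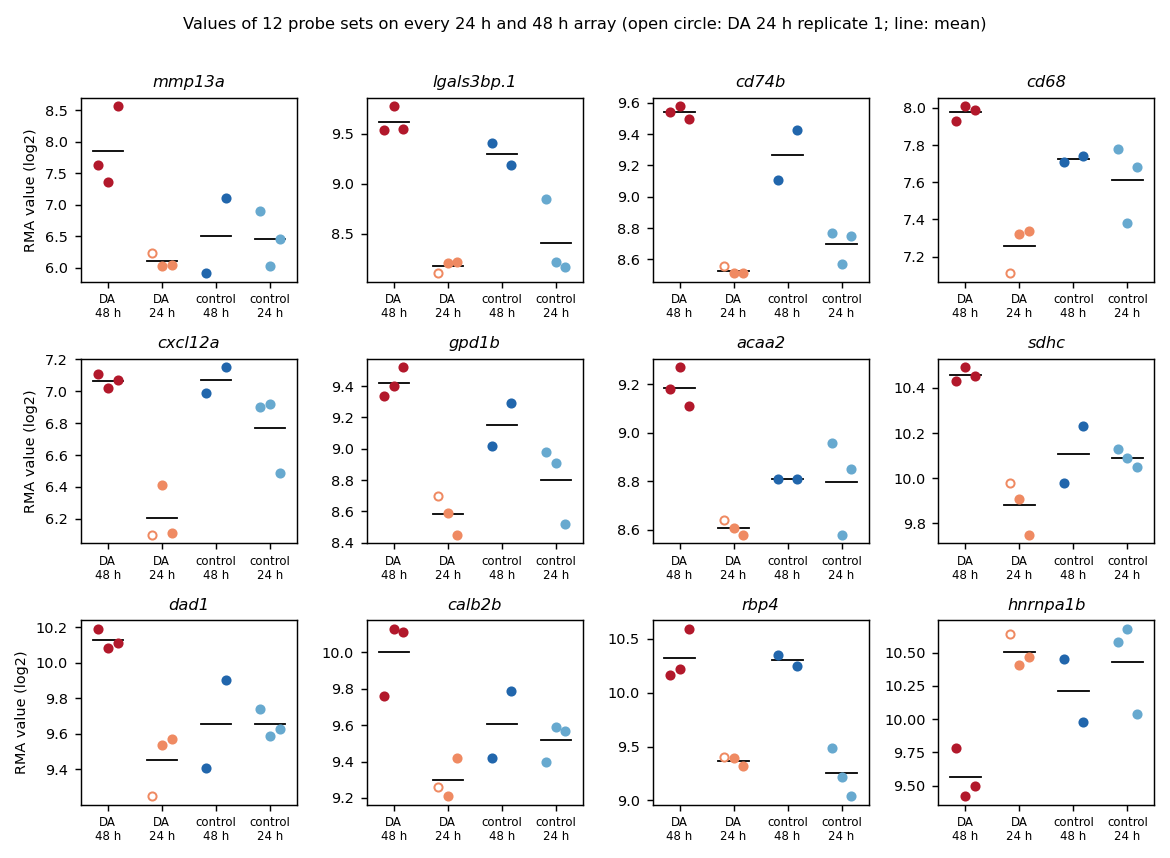
RMA signal on the log2 scale of 12 called probe sets on each array, with DA 48 h left of DA 24 h and control 48 h left of control 24 h. Each point is 1 array of pooled brains, the open circle is DA 24 h replicate 1 and each line is a group mean. The DA groups do not overlap at any of the 56 calls with all arrays, and so in no panel. Of these 12, hnrnpa1b alone is lower in DA 48 h brains.

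Of 26 measured genes of fatty acid oxidation, 2 passed with all arrays, both higher, beside 0.478% of all genes that passed upward. The thiolase gene acaa2, which performs the last step of each turn of mitochondrial oxidation, had 9.18, 9.27 and 9.11 in DA 48 h brains, against 8.64, 8.61 and 8.58 in DA 24 h brains. The groups did not overlap, and the change was 0.58 ± 0.10 (SE, adjusted p = 0.0205). The enoyl-CoA isomerase gene eci1 had 8.67, 8.73 and 8.68 in DA 48 h brains, against 8.03, 8.12 and 7.89 in DA 24 h brains, a change of 0.68 ± 0.13 (SE, adjusted p = 0.0307). Leaving out DA 24 h replicate 1 left a difference of 0.69 at eci1 that did not pass (adjusted p = 0.0556), while acaa2 passed again (adjusted p = 0.0389). A probe set of the dienoyl-CoA reductase gene decr1 that can bind related transcripts rose by 0.73 (adjusted p = 0.0132), and passed in both fits. The brightest probe set of decr1 differed by 0.38 (adjusted p = 0.151) and the third by -0.23.

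Over the 26 genes, 24 changes were above 0, beside 54.0% of all genes and 68.3% of genes above the median level, where 22 of the 26 lie. By an unadjusted p under 0.05, 14 were higher and 0 were lower in limma, beside 18.3% higher among genes above the median level. In 16 genes every DA 48 h array was above every DA 24 h array, beside 15.5% of all genes and 21.7% of those above the median level. The list's median was 0.319 with all arrays and 0.340 without DA 24 h replicate 1. Control fish had a median of 0.042 between the same times.

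A gene of glycerol metabolism and one of electron transport also rose. The cytosolic dehydrogenase gene gpd1b, which links glycolysis to glycerolipids, had 9.34, 9.40 and 9.52 in DA 48 h brains, against 8.70, 8.59 and 8.45 in DA 24 h brains. The change was 0.84 ± 0.12 (SE, adjusted p = 0.0132), and it was 0.90 without DA 24 h replicate 1 (adjusted p = 0.0207). The gene sdhc, for a membrane anchor of succinate dehydrogenase, had 10.43, 10.49 and 10.45 in DA 48 h brains, against 9.98, 9.91 and 9.75 in DA 24 h brains, and rose by 0.58 (adjusted p = 0.0329; without DA 24 h replicate 1, 0.0406). It was the 1 gene of 75 in oxidative phosphorylation that passed, beside 0.478% of all genes that passed upward with all arrays.

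Of the 75 oxidative phosphorylation genes, 69 changes were above 0 in either fit, 21 passed an unadjusted p of 0.05 upward and 0 downward, and the median was 0.210. In control fish 16 of the 75 were above 0, beside 50.9% of all genes, and the median was -0.145. All 75 lie above the median level, where 68.3% of genes were above 0 and 18.3% passed upward in DA fish with all arrays. In controls 2942 of the 5112 genes above that level were above 0. The list's centred mean was -0.195 and 0.061 on the 2 control 48 h arrays, against 0.202, -0.019 and 0.002 on the control 24 h arrays, so replicate 1 at 48 h alone was below every control 24 h array. Cytosolic ribosomal proteins had medians of 0.094 in DA fish and -0.175 in controls over 74 genes, and mitochondrial ribosomal proteins had 0.119 and -0.162 over 59 genes. In both ribosomal lists control 48 h replicate 1 was the lowest control array of these times, at -0.199 and -0.189, while replicate 2 was at 0.057 and -0.018. Control 24 h replicate 1 was the highest, at 0.222 and 0.170. Control 24 h replicates 2 and 3 were at 0.055 and 0.005 for cytosolic and 0.050 and -0.019 for mitochondrial ribosomal proteins. The differences between DA and control changes had medians of 0.365, 0.277 and 0.309 in these lists. They thus rest in part on 1 of the 2 control 48 h arrays and on control 24 h replicate 1. Leaving out DA 24 h replicate 3 lowered the DA median of cytosolic ribosomal proteins to 0.032, and repeated quantile normalisation lowered that of mitochondrial ones to 0.029. With replicates 1 and 3 both out, the DA medians were 0.011 and 0.047. No gene of either ribosomal list passed. Citric acid cycle and glycolysis lists had medians of 0.144 and 0.093, against 0.105 for genes above the median level.

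No list held the genes of retinol transport and conversion, which are named here as single calls. The blood and tissue retinol carrier gene rbp4 had 10.16, 10.22 and 10.59 in DA 48 h brains, against 9.40, 9.39 and 9.32 in DA 24 h brains, and rose by 0.95 ± 0.16 (SE, adjusted p = 0.0205). Control brains differed by 1.05 between the same times, with 10.35 and 10.25 at 48 h against 9.49, 9.22 and 9.04 at 24 h. The retinol dehydrogenase genes dhrs9 and rdh10b rose by 0.59 and 0.55 (adjusted p = 0.0136 and 0.0247), and control fish differed by 0.11 and 0.20. With that 24 h array left out, rbp4 and dhrs9 passed again and rdh10b did not (adjusted p = 0.0567). A probe set of the visual cycle isomerase gene rpe65a had 6.17, 6.48 and 6.44 in DA 48 h brains, against 5.68 and 5.67 in replicates 2 and 3 and 6.45 in replicate 1 at 24 h. It passed only without replicate 1 (0.69, adjusted p = 0.0325). The brighter probe set of rpe65a differed by 0.78 in that fit (adjusted p = 0.436) and by 0.53 with all arrays (adjusted p = 0.477), and passed in neither.

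Of 62 genes of folding, stress and export in the endoplasmic reticulum, 0 passed in limma. By an unadjusted p under 0.05, 8 of them were higher and 1 lower, beside 13.0% and 5.75% of all genes. Of the 62, 54 lie above the median level, where 18.3% of genes were higher. Outside that list, the genes dad1 and tusc3, for subunits of the complex that attaches sugar chains to new proteins in the endoplasmic reticulum, rose by 0.67 and 0.64 (adjusted p = 0.0205 and 0.0326), and both passed again without DA 24 h replicate 1. On the arrays, dad1 had 10.19, 10.08 and 10.11 in DA 48 h brains, against 9.25, 9.54 and 9.57 in DA 24 h brains. The gene fbxo2, for a ubiquitin ligase subunit that in mammals binds sugar-bearing proteins of neurons, rose by 0.76 with all arrays (adjusted p = 0.0326) and did not pass without DA 24 h replicate 1 (0.71, adjusted p = 0.0792).

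Of 48 proteasome genes, 42 changes were above 0, 18 passed an unadjusted p of 0.05 upward and 0 downward, and the median was 0.278 (0.153 with the blank-tag level as a covariate). Of the 48, 41 lie above the median level, where 68.3% of genes were above 0 and 18.3% passed upward. None of the 48 passed with all arrays. With replicate 1 at 24 h left out the median was 0.232 and psmd4a, the gene of a ubiquitin receptor of the proteasome, passed (0.55, adjusted p = 0.0438). Control fish had a median of 0.044. Among 174 genes of ubiquitin conjugation and removal the median was 0.002. In that list ube2ql1, for a conjugating enzyme, had 9.78, 9.39 and 9.61 in DA 48 h brains, against 8.13 and 8.12 in replicates 2 and 3 and 9.10 in replicate 1 at 24 h. It rose by 1.47 without replicate 1 (adjusted p = 0.0481) and by 1.14 with it, which did not pass (adjusted p = 0.0948), and its other probe set differed by -0.26. The large ubiquitin ligase gene herc2 fell by 0.42 without replicate 1 (adjusted p = 0.0471).

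Antioxidant genes had a median of 0.242 over 47 genes, of which 38 were above 0, and by an unadjusted p under 0.05, 20 were higher and 1 was lower. Here 39 of the 47 lie above the median level, where the shares were 68.3% above 0 and 18.3% higher. Control fish had a median of 0.101 between the same times, with 36 of the 47 above 0, beside 50.9% of all genes. The iron store gene fthl27, a ferritin heavy chain, rose by 0.58 in DA fish (adjusted p = 0.0326). It had 11.76, 11.94 and 11.74 in DA 48 h brains, against 11.22, 11.12 and 11.36 in DA 24 h brains, and the groups did not overlap. Leaving out DA 24 h replicate 1 gave 0.57, which did not pass (adjusted p = 0.0636). In that fit gstp1.2, a glutathione transferase gene, passed at 1.16 (adjusted p = 0.0481), and selenbp1, which encodes an oxidase of sulphur compounds, passed at 0.76 (adjusted p = 0.0376).

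**Figure D3:**
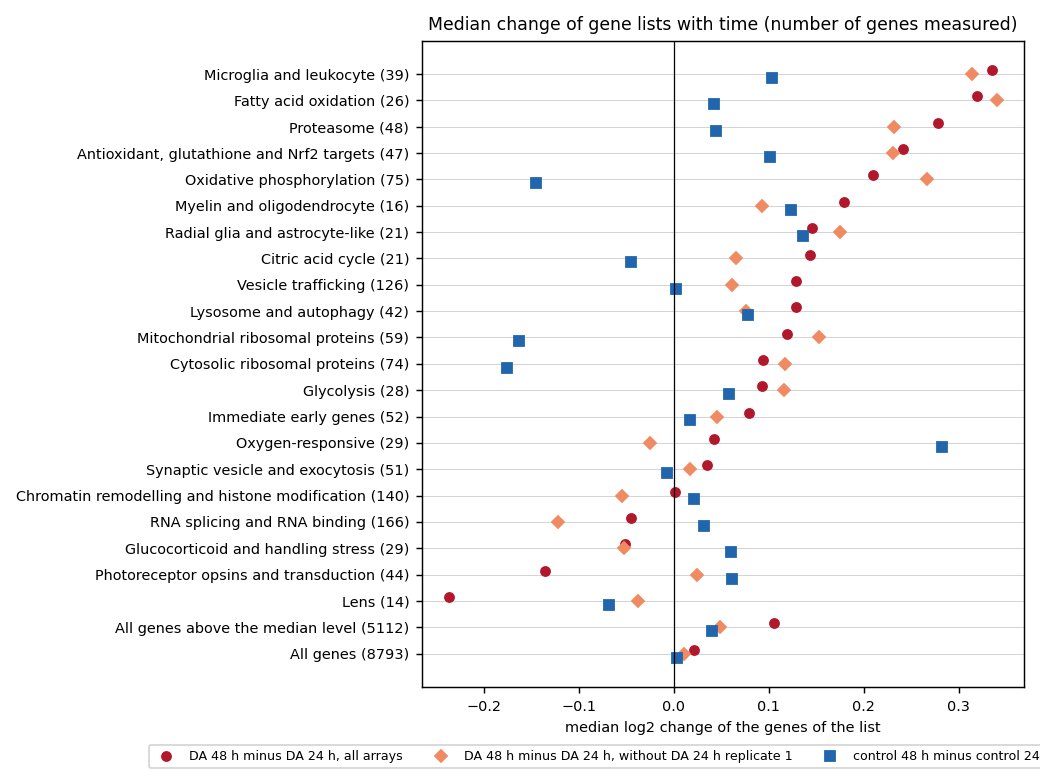
Median log2 change of the genes of each list, 48 h minus 24 h, in DA fish with all arrays (circles) and without DA 24 h replicate 1 (diamonds), and in control fish (squares). Microglia and fatty acid oxidation lists lie farthest right in DA fish, at 0.335 and 0.319 with all arrays, and the lens list lies farthest left, at -0.236 with all arrays.

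Of 48 calcium signalling and binding genes 1 passed, with a list median of -0.022, and of 32 neuropeptide and serotonin genes 1 passed, with a median of 0.007. Both passed upward with all arrays, as did 0.478% of all genes. The gene calb2b, for the neuronal calcium buffer calretinin, had 9.76, 10.13 and 10.11 in DA 48 h brains, against 9.26, 9.21 and 9.42 in DA 24 h brains. It rose by 0.70 ± 0.12 (SE, adjusted p = 0.0201), while control fish differed by 0.08, and calb2b passed again without DA 24 h replicate 1 (0.68, adjusted p = 0.0406). The penta-EF-hand genes sri (sorcin, a modulator of calcium release channels) and gca (grancalcin, known from human neutrophils) rose by 1.01 and 0.90 (adjusted p = 0.0107 and 0.0132), passed in both fits, and the other probe set of gca differed by 0.51. On the arrays sri had 9.51, 9.62 and 9.56 in DA 48 h brains, against 8.32, 8.67 and 8.68 in DA 24 h brains, with replicate 1 the lowest at 24 h. The midbrain peptide gene gnrh2 rose by 0.77 with all arrays alone (adjusted p = 0.0371) and the urotensin-related peptide gene urp2 by 0.73 without DA 24 h replicate 1 (adjusted p = 0.0438). Markers of neurons as a whole had a median change of -0.04.

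The patterning gene hoxb8a, which marks the posterior hindbrain and spinal cord, had 5.30, 5.79 and 5.92 in DA 48 h brains, against 4.58, 4.42 and 4.79 in DA 24 h brains. It rose by 1.07 ± 0.17 (SE, adjusted p = 0.016) and passed in both fits, but its 2 other probe sets differed by -0.11 and -0.10. In addition hoxb2a rose by 0.49 without DA 24 h replicate 1 (adjusted p = 0.0376), while its other probe set differed by 0.12 in that fit. The median of 42 Hox genes was -0.086 with all arrays and 0.071 without that array, so the list's sign turned with it. The actin-binding transgelin genes tagln2 and tagln3b rose by 0.58 and 0.65 (adjusted p = 0.0205 and 0.0482), and tagln2 alone passed in both fits. A probe set of the intermediate filament gene prph that can bind related transcripts rose by 0.57 (adjusted p = 0.0465), while other probe sets differed by 0.31 and -0.21, and it did not pass without DA 24 h replicate 1 (adjusted p = 0.0743).

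The junction protein gene perp rose by 0.87 (adjusted p = 0.0326), with a change of 0.86 in control fish and -0.23 at its other probe set. The membrane tetraspanin gene tspan36 rose by 0.86 (adjusted p = 0.0214), the histone deacetylase gene hdac8 by 0.66 (adjusted p = 0.0293), the cytochrome P450 gene cyp2p10 by 0.62 (adjusted p = 0.0465) and the trafficking adaptor gene ap1g2 by 0.53 (adjusted p = 0.0429). These 5 genes did not pass without DA 24 h replicate 1. The uncharacterised gene zgc:158423 passed in both fits, at 1.23 and 1.27. Further genes that rose with all arrays were nob1, cldc1, nherf1a, rnaseka, pttg1ipb, eipr1, esd, sult6b1, tmem256 and fxyd6l, with changes of 0.44 for fxyd6l to 0.75 for nob1, and of these cldc1, pttg1ipb and fxyd6l passed in both fits. The brightest probe set of nob1 differed by 0.12, the other probe sets of eipr1 by 0.34 and 0.05, that of esd by 0.14 and that of pttg1ipb by -0.11. The sulphatase-modifying factor gene sumf2 and the enolase gene eno3 passed only without DA 24 h replicate 1, at 0.58 each (adjusted p = 0.0471). Another 9 called probe sets with all arrays, and 5 without that array, had no symbol, the largest at 1.50 (adjusted p = 0.0132).

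The other glial lists had lower medians than the microglia list. The radial glia and astrocyte-like list had a median of 0.146 over 21 genes in DA fish and 0.136 in controls. The filament gene gfap had 7.38, 7.32 and 7.30 in DA 48 h brains, against 6.76, 6.76 and 6.78 in DA 24 h brains. The groups of gfap were apart, with a difference of 0.57 that did not pass (adjusted p = 0.0764), and control fish differed by 0.45. Of 6 measured markers of radial glia 4 were above 0, with a median change of 0.097, while cyp19a1b and glula differed by -0.04 and -0.09. The myelin list had a median of 0.180 over 16 genes in DA fish (0.093 without DA 24 h replicate 1) and 0.124 in controls. In DA fish olig2, a transcription factor of oligodendrocytes, was at 0.71 (adjusted p = 0.0874) and the myelin claudin gene cldnk at 0.63 (adjusted p = 0.17). The other measured myelin markers, mbpa and mbpb, differed by -0.14 and 0.21, and by -0.12 and -0.004 without DA 24 h replicate 1. Markers of muscle and skin had a median of 0.481 over 7 genes, none past the threshold, while the full list of 68 muscle and skin genes had a median of -0.042, with 26 above 0. DA 48 h replicate 3, the array with the highest mmp13a, also had the highest muscle creatine kinase, with ckma at 6.71, 7.02 and 8.12 in DA 48 h brains, against 6.93, 6.74 and 6.73 in DA 24 h brains. What these tissues add to the called genes was not tested.

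Named genes that passed downward numbered 1 with all arrays and 6 without DA 24 h replicate 1. Among the 166 splicing and RNA-binding genes, 1 and 2 passed downward in these fits, beside 1 and 6 of all 8793 genes. With all arrays the splicing repressor gene hnrnpa1b had 9.78, 9.42 and 9.50 in DA 48 h brains, against 10.64, 10.41 and 10.47 in DA 24 h brains. It fell by 0.94 on the log2 scale (SE 0.19, adjusted p = 0.0479), and did not pass without DA 24 h replicate 1 (-0.87, adjusted p = 0.10). The other lower call with all arrays had no symbol.

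The 8 lower calls made without DA 24 h replicate 1 rest on replicates 2 and 3 at 24 h, since replicate 1 was below both of them at all 8 probe sets. For tial1, a stress granule and splicing factor, DA 48 h brains had 7.02, 6.71 and 6.71, against 7.65 and 7.84 in replicates 2 and 3 and 6.19 in replicate 1 at 24 h. It fell by 0.93 without replicate 1 (adjusted p = 0.0406). The splicing factor gene u2surp fell by 0.90 (adjusted p = 0.0462), with 8.57 in replicate 1 against 9.87 and 9.92 in the other DA 24 h arrays, and its 2 other probe sets differed by 0.20 and 0.05 with all arrays. The DNA repair nuclease gene apex1 fell by 0.52 (adjusted p = 0.0407), with replicate 1 again the lowest at 8.49, and its probe set and that of dad1 carry identifiers of the same transcript cluster.

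The gene ythdf2, which encodes a reader of methylated adenosine that hastens decay of messenger RNA, had 8.38, 8.27 and 8.59 in DA 48 h brains, against 8.70, 9.20 and 9.07 in DA 24 h brains. Here replicate 1 also lay above every 48 h array. The change was -0.58 with all arrays (adjusted p = 0.0572), and ythdf2 fell by 0.72 without replicate 1 (adjusted p = 0.027). The kinase gene dstyk fell by 0.51 in that fit (adjusted p = 0.0325). Over 166 splicing and RNA-binding genes, 100 changes were below 0 with all arrays and 126 without replicate 1, with medians of -0.044 and -0.122. Of all 8793 genes, 4043 and 4137 were below 0 in these fits. Among the 5112 genes above the median level, where 138 of the 166 lie, 1621 and 2113 were below 0. By an unadjusted p under 0.05, 9 of the 166 were higher and 24 lower with all arrays, beside 13.0% and 5.75% of all genes. Of the list, 1 gene passed downward, beside 0.0114% of all genes. The list's mean after centring each gene was 0.004, -0.065 and -0.059 on the DA 48 h arrays, against -0.128, 0.094 and 0.099 on the DA 24 h arrays, so replicate 1 was below and replicates 2 and 3 above the 48 h arrays.

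**Figure D4:**
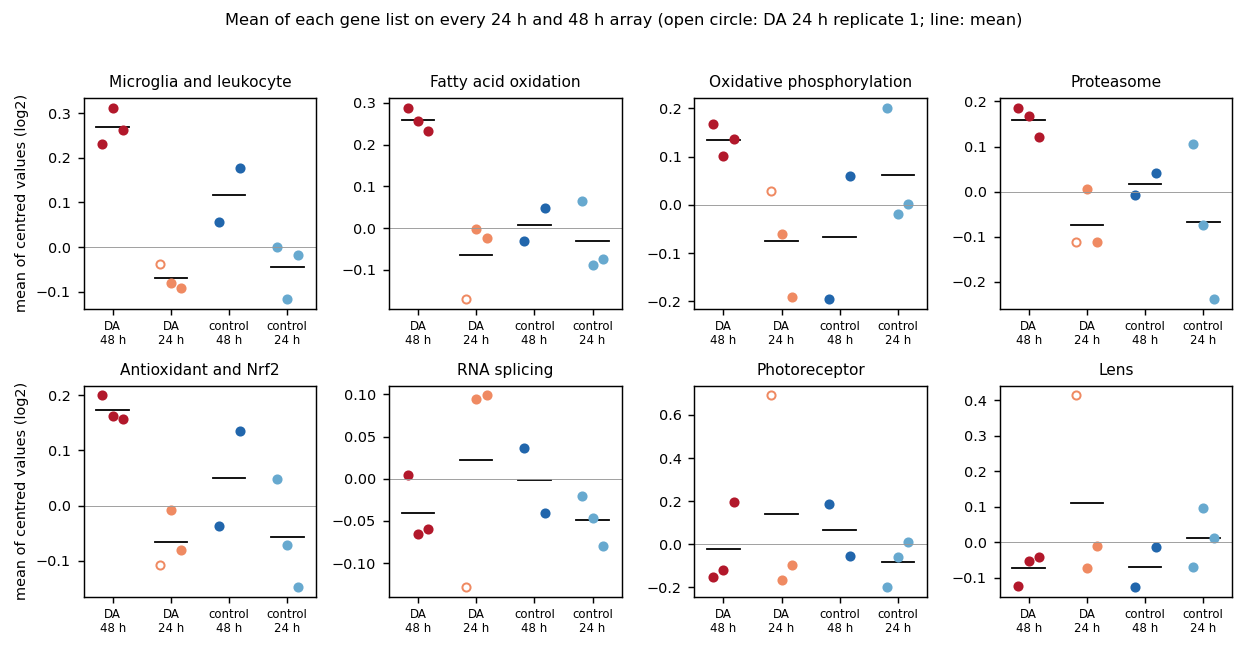
Mean of each gene list on each array, after centring every gene on its mean over arrays (log2), with DA 48 h left of DA 24 h and control 48 h left of control 24 h, the open circle for DA 24 h replicate 1 and a line for each group mean. The 3 DA 48 h arrays lie above the 3 DA 24 h arrays in the microglia, fatty acid oxidation, oxidative phosphorylation, proteasome and antioxidant lists. The mean over all genes, not drawn, was separated too, at 0.020 to 0.041 on the DA 48 h arrays against -0.037 to 0.005 on the DA 24 h arrays. DA 24 h replicate 1 stands alone in the photoreceptor list at 0.690.

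The medians of the eye and lens lists depended on DA 24 h replicate 1. The photoreceptor list of 44 genes had a median of -0.135 with all arrays and 0.025 without DA 24 h replicate 1. Leaving out DA 48 h replicate 3 alone gave -0.234. The centred mean of the photoreceptor list was 0.198 on that array, against -0.1493 and -0.1175 on DA 48 h replicates 1 and 2. The cone phosphodiesterase gene pde6hb had 5.85, 5.97 and 6.06 in DA 48 h brains, against 8.18, 6.08 and 6.06 in DA 24 h brains. The ultraviolet opsin gene opn1sw1 had 5.73, 5.72 and 5.71 in DA 48 h brains, against 7.27, 5.95 and 5.75 in DA 24 h brains. In both genes replicate 1 alone was high. The lens list of 14 genes had a median of -0.236 with all arrays and -0.037 without that array, and no gene of either list passed.

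Over the same time step in control fish, with 2 arrays at 48 h, no probe set passed between control 48 h and control 24 h with all arrays (limma, 0.0%, with 1101 or 7.1% at an unadjusted p under 0.05). With DA 24 h replicate 1 left out of the shared spread, 21 passed (0.135%). With the blank-tag level as a covariate the counts were 0 in DA fish and 23 in controls, and 0 and 18 without replicate 1. The test of the DA change against the control change called 0 probe sets with all arrays (1002 or 6.46% at an unadjusted p under 0.05) and 4 (0.0258%) without that array. Both counts made without that array rested on the control 48 h arrays: leaving out replicate 1 gave 0 and 0 (limma, 963 and 922 at an unadjusted p under 0.05), and leaving out replicate 2 gave 65 and 132. A difference between the DA and the control time change was therefore not established for any gene called with all arrays.

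Of the 54 probe sets higher in DA fish, 48 had a higher mean at 48 h than at 24 h in controls too, and 18 did so at an unadjusted p under 0.05, beside 4.41% of all probe sets. Of all 15502 probe sets, 7528 had a higher control mean at 48 h. The median change of the 54 was 0.695 in DA fish and 0.197 in controls. In 47 the DA 48 h mean was above the control 48 h mean, and in 50 the DA 24 h mean was below the control 24 h mean. These counts describe probe sets chosen with the DA arrays and carry no test. At 168 h the DA mean was above the DA 24 h mean in 48 of the 54 and above the DA 48 h mean in 1. Probe sets chosen as low at 24 h and high at 48 h tend to lie between these at another time. The 168 h counts therefore carry no test either.

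The control changes at these genes covered a wide range. Control fish differed by 1.05 at rbp4, 0.86 at perp, 0.89 at lgals3bp.1, 0.78 at cd74a, 0.76 at zgc:158423, 0.57 at cd74b and 0.49 at ccl34b.1. They differed by 0.00 at dad1, 0.01 at acaa2, 0.02 at sdhc, 0.06 at mmp13a and 0.11 at cd68. For these last 5 genes the difference between DA and control changes was 0.67, 0.57, 0.56, 1.70 and 0.61, with unadjusted p of 0.00138 to 0.00374 in limma and none past the adjusted threshold. These 5 genes were picked from those called in DA fish for their small control changes. Their unadjusted p-values are small in part through that choice and carry no support.

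**Figure D5:**
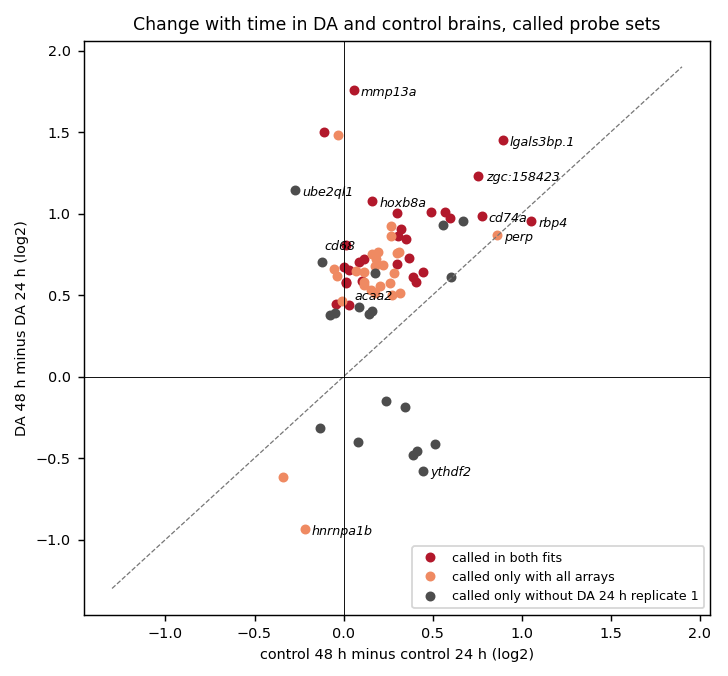
Change with time in DA fish (48 h minus 24 h, all arrays, log2) against the change with time in control fish, for the 75 probe sets called in either fit. The dashed line marks equal changes and colours tell which fit made the call. The gene rbp4 lies near the diagonal, at 0.95 in DA fish and 1.05 in controls, and mmp13a and acaa2 lie near 0 on the control axis.

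The 4 probe sets that passed the test of the difference without DA 24 h replicate 1 were all more negative in DA fish. The largest was fkbp5, a glucocorticoid-induced co-chaperone of the steroid receptor. It had 8.84, 8.52 and 9.19 in DA 48 h brains, against 8.35, 10.35 and 9.57 in DA 24 h brains. Control brains had 10.98 and 10.16 at 48 h, against 8.82, 7.78 and 7.44 at 24 h, so the order of the times was opposite in the group means of controls. The difference of the changes was -3.67 without replicate 1 (adjusted p = 0.0378) and -3.13 with all arrays (adjusted p = 0.504).

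At ythdf2 the control change was 0.45 and the difference was -1.17 without replicate 1 (adjusted p = 0.0356), against -1.02 with all arrays (adjusted p = 0.504). At a probe set of sox11b, a transcription factor of young neurons, the difference was -1.86 without replicate 1 (adjusted p = 0.0356). DA 48 h brains had 7.12, 6.88 and 6.78, against 6.05, 7.93 and 7.57 in DA 24 h brains, and at the 2 other probe sets of sox11b the difference of the changes was -0.41 and -0.63 in the same fit, with unadjusted p of 0.0567 and 0.0243 in limma. The uncharacterised LOC567909 had a difference of -1.0 (adjusted p = 0.0424). The glucocorticoid-responsive transcription factor gene klf9 had 9.85, 9.45 and 9.66 in DA 48 h brains, against 9.03, 10.48 and 9.67 in DA 24 h brains, groups that overlapped (adjusted p = 0.936).

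Oxygen-responsive genes had a median of 0.042 in DA fish and 0.282 in controls over 29 genes. By an unadjusted p under 0.05, 2 were higher in DA fish and 13 in controls, beside 13.0% and 5.15% of all genes. The difference of the changes was negative at an unadjusted p under 0.05 in 8 of the 29, beside 2.26% of all genes. The prolyl hydroxylase gene egln3, a brake on the hypoxia response, had 4.99, 4.84 and 4.99 in DA 48 h brains, against 4.66, 4.96 and 5.12 in DA 24 h brains, and 5.76 and 5.97 in control 48 h brains, against 4.92, 4.68 and 5.21 in control 24 h brains. The DA groups overlapped and the control groups did not.

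Activity markers and DA targets showed no call. Of 52 immediate early genes, which neurons switch on when they fire, 4 passed an unadjusted p of 0.05 upward and 2 downward, beside 13.0% and 5.75% of all genes, with a median of 0.080 (0.026 without DA 48 h replicate 2). The gene fosab had 8.41, 8.57 and 9.06 in DA 48 h brains, against 8.40, 8.36 and 8.16 in DA 24 h brains (adjusted p = 0.496), and egr1 had 7.64, 7.13 and 7.11 in DA 48 h brains, against 6.67, 7.16 and 7.20 in DA 24 h brains (adjusted p = 0.531). These changes were 0.369 and 0.285, while other probe sets differed by 0.20, -0.15 and -0.06 for fosab and by -0.21 for egr1. The stress-induced factor gene atf3 differed by 0.58 (adjusted p = 0.0709). The 5 ionotropic glutamate receptor genes had a median of 0.046, with the AMPA subunit gene gria2a at -0.50 (adjusted p = 0.466), the kainate subunit gene grik1a at 0.20 (adjusted p = 0.266) and the NMDA subunit gene grin1a at -0.03.

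Sterol synthesis genes did not pass. The synthase gene hmgcs1 had 7.57, 7.68 and 7.49 in DA 48 h brains, against 7.92, 8.34 and 8.06 in DA 24 h brains, groups that did not overlap (-0.52, adjusted p = 0.203), and insig1, a brake on the pathway, differed by 0.12 (adjusted p = 0.759). The chromatin remodeller gene chd2 had 8.81, 8.84 and 8.82 in DA 48 h brains, against 8.70, 7.63 and 7.40 in DA 24 h brains. The difference was 0.91 with all arrays (adjusted p = 0.226), and the other probe set of chd2 differed by -0.01. The membrane skeleton gene add3a differed by -0.56 (adjusted p = 0.482), and its other probe sets by 0.58 and -0.09.

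The count of calls rested on single arrays. When DA 48 h replicate 2 was left out, 0 probe sets passed in either fit (limma, with 1839 at an unadjusted p under 0.05 with the remaining arrays and 1517 where DA 24 h replicate 1 was also out). Leaving out DA 48 h replicate 1 or 3 left 11 and 6 calls, and leaving out DA 24 h replicate 3 gave 194.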

How the data were processed

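RNA of pooled brains was hybridised to 1-colour Affymetrix arrays. The deposited values are log2 signals, 1 per probe set and array, made by the authors with oligo and RMA and tested with limma, per the submitters' processing notes, which are used here without version numbers. RMA makes the distribution of values alike between arrays, so a change shared by most transcripts is removed. Of 15617 probe sets, 115 are manufacturer's controls, and the other 15502 were tested without a filter on level. Values ran from 3.65 to 15.03. Platform symbols were updated through gene numbers for 10711 of 10795 probe sets with 1 symbol. Another 135 had several symbols and 4572 had none. In lists, a gene stood as its probe set with the highest mean over arrays. Precision is limited by how few arrays there are.

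The 17 arrays entered 1 model in limma 3.58.1 (R 4.3.3) with a mean for each group, and moderated two-sided p-values received a Benjamini-Hochberg adjustment across probe sets. The residual degrees of freedom were 11 and the prior ones 4.39. The model was repeated on the 16 arrays other than DA 24 h replicate 1. The contrasts were DA 48 h minus DA 24 h, the same in controls, and their difference. The 51 lists are described by counts and medians and have no test. Genes were named by a rule: up to 15 per direction and fit with the largest called changes and groups apart, up to 6 members of each list that passed, otherwise up to 4 members with the smallest p, up to 10 per direction in the difference, and 10 genes always given; cd68 and genes outside these were added after their values were seen. The comparison, lists and genes were chosen with earlier results of these data known. The alternatives were other scalings, variance models, covariates, subsets of arrays and leaving out each array. The procedure was tested on simulated data.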

Additional observations from a re-analysis of the deposited data

Results flagged for a closer look

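Without DA 24 h replicate 1, the change between 48 h and 24 h in DA fish differed from that in control fish at 4 probe sets in limma. The difference was -3.67 at fkbp5 (adjusted p = 0.0378), -1.86 at sox11b (adjusted p = 0.0356), -1.17 at ythdf2 (adjusted p = 0.0356) and -1.0 at LOC567909 (adjusted p = 0.0424). Across 26 alternatives these passed in 15, 16, 18 and 13. The control probe sets, which were not tested themselves, gave a signal of their own: the blank tags averaged 5.74 on DA 24 h replicate 1, above every control array.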

How the results depend on the processing

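With all arrays (56 calls), repeated quantile normalisation gave 34, array weights 576, adjusting for spike-ins 1, for the GAPDH 3′ minus 5′ difference 91 and for blank tags 0 (1821 at an unadjusted p under 0.05, limma), DA arrays alone 35, the 2 DA groups alone 4 and the 4 groups of these times 4. With DA 24 h replicate 1 left out (48 calls), median centring gave 21, probe sets above the median level 29, array weights 475, adjusting for spike-ins 3, for the GAPDH difference 81 and for blank tags 0 (1638 at an unadjusted p under 0.05), DA arrays alone 131, the 2 DA groups alone 433 and the 4 groups of these times 19. Other planned settings kept these counts within 1.5 times. For the control time step (0 calls), an intensity trend gave 5 and adjusting for blank tags 23, and for the difference of the time changes (0 calls), quantile normalisation gave 1, array weights 2 and blank tags 7. Leaving out 1 array at a time gave 0 to 194 calls with all arrays. Among DA 48 h arrays, removal of replicate 2 gave 0, of replicate 3 gave 6 and of replicate 1 gave 11, and the removal of replicate 2 from the 168 h controls gave 34, of replicate 3 from the 24 h controls 112 and of replicate 3 from the DA 24 h arrays 194. With DA 24 h replicate 1 also out the range was 0 to 84. There the removal of DA 24 h replicates 2 and 3 gave 0 (1373 at an unadjusted p under 0.05) and 2, that of DA 48 h replicates 1, 2 and 3 gave 18, 0 (1517 at an unadjusted p under 0.05) and 2, that of DA 168 h replicates 2 and 3 gave 29 and 11, that of 168 h control replicates 1 and 2 gave 27 and 26, and that of 24 h control replicate 3 gave 84. With all arrays, the control step ranged from 0 to 21 and the difference from 0 to 4, both highest when DA 24 h replicate 1 was out. With it out, the 21 control calls and 4 calls of the difference became 0 and 4 by median centring, 11 and 3 by quantile normalisation, 20 and 8 above the median level, 9 and 12 with an intensity trend, 0 and 9 with array weights, 11 and 23 with spike-ins, 15 and 80 with GAPDH, and 0 and 0 in the 4 groups of these times (1654 and 1573 at an unadjusted p under 0.05). Leaving out a further array gave 0 to 65 and 0 to 132, both 0 on the removal of 24 h control replicate 2, DA 24 h replicate 2 or 3, 48 h control replicate 1 or DA 48 h replicate 1 or 2 (963 to 1599 and 922 to 1533 at an unadjusted p under 0.05). The causes were not tested.

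The genes with a change of sign were not called with all arrays. In that fit, adjusting for blank tags turned egr1 to -0.105, opn1sw1 to 0.094, egln3 to -0.161 and pde6hb to 0.128, adjusting for spike-ins turned klf9 to 0.287 and egln3 to -0.229, array weights turned egln3 to -0.074 and quantile normalisation turned insig1 to -0.006. With DA 24 h replicate 1 out, blank tags turned egr1 to -0.223, insig1 to -0.15 and opn1sw1 to 0.063, and spike-ins turned egr1 to -0.028 and klf9 to 0.081. Leaving out 1 array at a time gave ranges across 0 with all arrays for add3a (-1.0 to 0.079), grin1a (-0.171 to 0.088), klf9 (-0.428 to 0.298), apex1 (-0.522 to 0.049), sox11b (-0.821 to 0.122) and egln3 (-0.095 to 0.132), and with DA 24 h replicate 1 out for egr1 (-0.058 to 0.203).

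Deviations of same-numbered arrays from their group means had correlations of -0.266, -0.108 and -0.12 between DA 48 h and DA 24 h replicates 1 to 3. In controls these were 0.133 and 0.156. Differently numbered arrays had -0.104 to 0.225 in DA fish and -0.156 to 0.013 in controls. Deviations within a group sum to 0, so with so few arrays these values cannot decide whether the numbers are pairs. The numbers were not taken as pairs. A replicate block gave 50 calls with all arrays, 49 with DA 24 h replicate 1 out and 2 for the control step. With that array out it gave 11 for the control step and 22 for the difference.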
